A study of Mus musculus with 12 samples.

Results

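The 38 core autophagy genes were examined by chromatin accessibility in 3 cell populations sorted from the forebrains of WT and SgshKO mice. The set holds the genes of the ULK1 initiation complex and of the class III PI3-kinase complexes and their regulators. It also holds those of the phosphoinositide-binding and lipid-transfer proteins with Atg9a, the conjugation factors, the ATG8 family and the cargo receptors. A pair of factors for fusion with lysosomes completes the set. Every accessible region (peak) that the deposited annotation assigned to one of these symbols was kept, 657 of 281974 peaks in all. These were 204 of 91770 peaks in the microglia table, 230 of 107627 in the table of NeuN+ nuclei and 223 of 82577 in the table of Olig2+ nuclei. Peaks within 1000 bp of the assigned start site were treated as start-site peaks and the others as distal peaks. No cutoff on a measured value picked the members, but the list was chosen with earlier results of these data known.

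Autophagy encloses cytoplasm and damaged organelles in a double membrane and delivers them to lysosomes for degradation. The ULK1 kinase complex starts the process, the class III PI3-kinase makes the lipid phosphatidylinositol 3-phosphate on the growing membrane, WIPI proteins bind that lipid, ATG2 proteins carry lipid into the membrane, and the conjugation enzymes attach LC3 and GABARAP proteins to it. Cargo receptors link the contents to LC3, and the closed vesicle then fuses with a lysosome. Sgsh encodes sulfamidase, a lysosomal enzyme that degrades heparan sulfate, and its loss causes Sanfilippo syndrome type A, a lysosomal storage disease of the brain.

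The assay was ATAC-seq, which uses a transposase to cut and tag accessible DNA, and the 12 libraries came from C57BL/6 mice aged 4 months. WT and SgshKO mice gave 2 libraries each from live CD11b+/CD45low/CX3CR1+ microglia, from NeuN+ nuclei (neurons; PU.1- and OLIG2-) and from Olig2+ nuclei (the oligodendrocyte lineage; PU.1- and NEUN-). The nuclei were lightly fixed with formaldehyde and the microglia were not, so sort and preparation cannot be told apart in any comparison between sorts. The labels do not give the kind of Sgsh allele, how many animals a library holds or a batch, so p-values measure only the spread between these libraries, which may be technical. Each value below is the number of tags (aligned reads) in a peak, scaled by the authors to a library of 10000000 tags, and within a sort it is read as accessibility of that region in the sorted population. A lower value can mean fewer cells of a type with the region open or a less open region in each cell, and bulk libraries cannot tell these apart. Each log2 change comes from limma on log2 of the value plus 1, with its standard error (SE) and a p adjusted over all peaks of that table. A peak is called when the adjusted p is under 0.05. Groups do not overlap where both values of 1 group lie above both of the other. Peaks named for a small p tend to meet this because of that choice, so it is a description and no added support. Its share over all peaks was not counted.

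The libraries held 10771659 to 19555924 tags. The share of tags in peaks was 48.7% to 67.4% in microglia, where the SgshKO library replicate 1 had the 67.4%, and 30.9% to 31.8% in Olig2+ nuclei. The WT libraries of NeuN+ nuclei had 26.7% and 25.9%, and the SgshKO libraries 21.5% and 21.2%. The peak at the Sgsh start site itself had 184 and 162 tags in WT and 257 and 259.9 in SgshKO microglia, 34.6 and 22.6 against 9.07 and 13.3 in NeuN+ nuclei, and 65.9 and 74.2 against 60.9 and 69.1 in Olig2+ nuclei. The kind of allele is not given, so this peak does not check the genotype labels. Summed start-site tags of marker genes followed the sorts: 7 of 8 microglial markers had a start-site peak in microglia (1733 to 2264 tags), 8 of 8 neuronal markers in NeuN+ nuclei (507 to 943 tags) and 9 of 9 oligodendrocyte-lineage markers in Olig2+ nuclei (2663 to 3108 tags). Of the microglial list, 1 of 8 genes had a peak in NeuN+ nuclei and 2 of 8 in Olig2+ nuclei, and P2ry12, Tmem119, Cx3cr1 and Csf1r had none in either. Markers of other cell types also had start-site peaks in microglia. These were 6 of 9 oligodendrocyte-lineage (386 to 470 tags), 2 of 8 neuronal (157 to 312) and 2 of 5 endothelial markers (104 to 184). The astrocyte list had 2 of 5 (64.1 to 114) and the blood myeloid list 1 of 5 (9.28 to 22.5). In microglia the ranges of the WT and SgshKO sums overlapped for the microglial, neuronal, oligodendrocyte, endothelial, astrocyte and blood myeloid lists.

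The promoters of 5 genes whose start-site peaks rose in SgshKO microglia are shown first, because their peaks overlap the RefSeq entry and were among those with the smallest p. Wipi1, with a smaller p than Map1lc3b, is not shown because its strongest peak lies outside its promoter entry. RefSeq (GRCm38.p6, the same coordinates as the mm10 build of the files) gave promoter entries for 31 of the 38 genes. The following lines give the 250 bases before the annotated start, 5′ to 3′ on the gene's strand, with the bases inside the microglia start-site peak in capitals. Ulk1 is on the minus strand at chr5:110810082-110810331, Wipi2 on the plus strand at chr5:142629334-142629583, Atg2a on the plus strand at chr19:6241418-6241667, Atg4d on the plus strand at chr9:21265035-21265284, and Map1lc3b on the plus strand at chr8:121590188-121590437.
Ulk1: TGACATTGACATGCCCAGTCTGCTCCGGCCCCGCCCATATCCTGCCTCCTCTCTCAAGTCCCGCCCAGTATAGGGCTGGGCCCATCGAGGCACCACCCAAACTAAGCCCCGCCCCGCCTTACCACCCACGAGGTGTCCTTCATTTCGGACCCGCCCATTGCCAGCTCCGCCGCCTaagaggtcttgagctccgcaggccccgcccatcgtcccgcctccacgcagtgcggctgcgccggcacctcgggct
Wipi2: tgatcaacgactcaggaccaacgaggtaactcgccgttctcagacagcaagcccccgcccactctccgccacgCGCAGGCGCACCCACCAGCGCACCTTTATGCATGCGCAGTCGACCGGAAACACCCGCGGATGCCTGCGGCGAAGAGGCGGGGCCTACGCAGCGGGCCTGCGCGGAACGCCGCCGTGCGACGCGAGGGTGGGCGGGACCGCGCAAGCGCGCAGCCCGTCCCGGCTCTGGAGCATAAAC
Atg2a: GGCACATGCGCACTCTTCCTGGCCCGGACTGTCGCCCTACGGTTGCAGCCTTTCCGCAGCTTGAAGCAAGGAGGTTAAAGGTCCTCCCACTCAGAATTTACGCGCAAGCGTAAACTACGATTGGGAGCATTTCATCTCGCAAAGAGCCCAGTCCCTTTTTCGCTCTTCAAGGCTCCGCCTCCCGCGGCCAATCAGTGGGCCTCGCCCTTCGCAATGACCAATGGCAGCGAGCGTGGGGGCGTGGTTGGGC
Atg4d: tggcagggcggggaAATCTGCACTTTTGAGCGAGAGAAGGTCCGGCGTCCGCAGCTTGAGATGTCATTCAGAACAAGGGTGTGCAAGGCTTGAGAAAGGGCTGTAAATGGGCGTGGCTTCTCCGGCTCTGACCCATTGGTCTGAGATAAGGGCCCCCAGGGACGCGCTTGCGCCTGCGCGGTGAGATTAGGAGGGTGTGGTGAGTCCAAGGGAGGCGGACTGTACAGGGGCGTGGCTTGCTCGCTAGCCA
Map1lc3b: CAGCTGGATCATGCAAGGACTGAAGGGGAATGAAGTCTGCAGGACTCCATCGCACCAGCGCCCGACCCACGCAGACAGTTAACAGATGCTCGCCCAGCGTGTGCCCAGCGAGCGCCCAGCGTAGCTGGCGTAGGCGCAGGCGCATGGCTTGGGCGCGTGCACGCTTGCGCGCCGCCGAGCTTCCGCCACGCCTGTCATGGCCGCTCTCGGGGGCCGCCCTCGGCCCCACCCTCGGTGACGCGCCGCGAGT
The peak covered 175 of the 250 bases at Ulk1, 177 at Wipi2, 236 at Atg4d and all 250 at Atg2a and Map1lc3b.

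Motifs were searched on both strands of the RefSeq windows, which add the first bases after the start, over 35 promoters of the 31 genes and all 32851 promoters of the same length. The E-box CACGTG, the core of the sites that MITF, TFEB and TFE3 are known to bind, was in 14.3% of member promoters (Atg3, Atg5, Atg7, Atg14 and Rubcn) and in 7.15% of all promoters. The RefSeq entry of Atg7 starts at chr6:114671096, away from the Atg7 start-site peaks and with no microglia start-site peak in it, and none of the 250 bases before the Atg5 start lies in the called Atg5 peak. TCACGTGA, which contains CACGTG, was in Atg3 only (2.86% against 0.974%). TCATGTGA was in 0 member promoters and 0.986% of all. Among the 8 genes with a called start-site peak in microglia, only Atg5 held CACGTG in this window. GGGCGG, the letters of a GC box, was in 62.9% of member promoters and 35.7% of all, and in 7 of those 8 genes. Ulk1 held 5 copies, Wipi1 9 and Wipi2 2. CCAAT was in 28.6% of member promoters against 37.4% of all, CCGGAAG in 14.3% against 8.86%, and CATGTG in 5.71% against 14.2%. Motifs other than the E-box forms were chosen after values were seen, and a match of letters is a description, not a binding site.

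In microglia, start sites of autophagy genes were more open in SgshKO at 9 peaks of 8 genes, and Ulk1 had the largest change. The 9 were 13.8% of the 65 start-site peaks at the 38 genes, where 8.59% of all 23806 start-site peaks were called higher. None of the 65 was called lower by limma, edgeR or DESeq2 on their own scaling, where 1.20% of all were by limma, but scaling to tags in peaks gave 10 higher and 1 lower. With limma, 20 of the 65 had an unadjusted p under 0.05 in either direction. The median change was 0.33 over the 65 peaks and 0.03 over all start-site peaks, on the log2 scale. Over the strongest start-site peak of each gene, 32 of 38 changes were above 0. The share of all start-site peaks at such an unadjusted p, and of all genes with a change above 0, was not counted. Neither count is therefore read as a trait of the set. The count of called peaks fell without either WT library and rose without either SgshKO library. Such fits leave 1 library in a group, and the cause of these moves was not tested. The log2 change of Map1lc3b was 1.49 without WT library 1 and 1.26 without WT library 2, against 1.37. That of Atg5 was 1.34 and 0.71 in the same order, against 1.03. The smaller Wipi1 peak had 0.60 without SgshKO library 2, against 1.19.

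**Figure D1:**
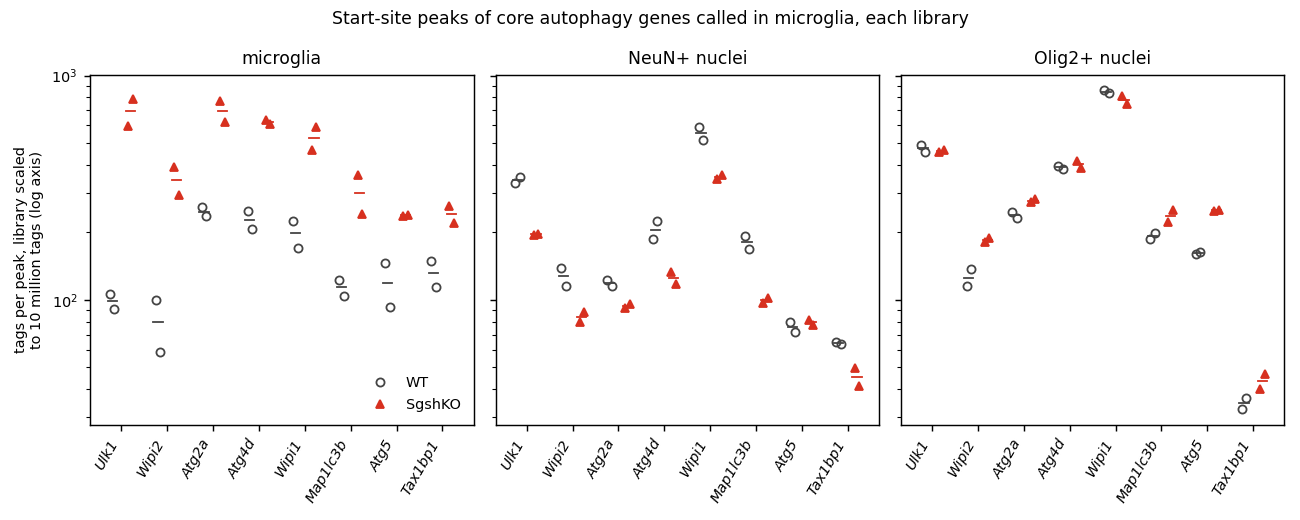
Tags in the start-site peaks of the genes called in microglia, for every library on a log axis, in 1 panel per sort. Points are the 2 libraries of WT and SgshKO and short lines their means. In the microglia panel Ulk1 goes from 106 and 90.7 in WT to 595 and 788 in SgshKO, in the NeuN+ panel the SgshKO points of Ulk1 lie below the WT points, and in the Olig2+ panel they overlap.

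Ulk1 encodes the kinase that starts autophagosome formation. Its microglia peak (chr5:110810157-110810391, centred at -193 bp from the start) had 106 and 90.7 tags in the WT libraries and 595 and 788 in the SgshKO libraries. Both SgshKO values lay far above both WT values. The change was 7.02-fold, a log2 change of 2.79 ± 0.27 (adjusted p = 8.56e-09), and it was called under every alternative tried, with log2 values of 2.41 to 2.99. The other members of the initiation complex did not pass the test. The strongest peak of Ulk2, a second ULK kinase, lies in intron 1 and had 115 and 75.4 tags in WT and 77.9 and 64.1 in SgshKO (log2 change -0.39, adjusted p = 0.509). Atg13 and Rb1cc1, the regulatory and scaffold subunits, had log2 changes of 0.28 and 0.13, and Atg101, which stabilises Atg13, had 0.05 at its strongest peak. The WT and SgshKO values of these 4 peaks overlapped.

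The phosphoinositide-binding and lipid-transfer genes had the most start-site calls of any group in microglia, 4 of 9 peaks at 3 of 5 genes and 0 of their 6 distal peaks. Groups were not compared by a test. Wipi2, which binds phosphatidylinositol 3-phosphate and recruits Atg16l1, had 100.25 and 58.5 tags in WT and 391 and 293 in SgshKO. That was 4.31-fold, with a log2 change of 2.13 ± 0.30 (adjusted p = 8.43e-06). Atg2a, which carries lipid into the growing membrane, had 258 and 236 in WT and 772 and 621 in SgshKO (log2 change 1.49 ± 0.25, adjusted p = 0.000141). Both peaks were called under every alternative. Wipi1, a related lipid-binding protein, had a strong peak centred at -434 bp with 226 and 169 tags in WT and 466 and 589 in SgshKO (1.42 ± 0.26, adjusted p = 0.000465). Its smaller peak at the start itself had 50.1 and 48.3 in WT and 75.3 and 172 in SgshKO (1.19 ± 0.35, adjusted p = 0.0271). WT and SgshKO values did not overlap at any of these 4 peaks. The call of the strong Wipi1 peak was lost without WT replicate 2 (adjusted p = 0.208). That of the small one was lost without WT replicate 1 (0.355), WT replicate 2 (0.563) or SgshKO replicate 2 (0.206), with scaling to tags in peaks (0.0706) and with DESeq2 (0.319). Atg9a, the membrane protein of the vesicles that seed the autophagosome, had 232 and 211 tags in WT and 395 and 359 in SgshKO but missed the threshold (0.77, adjusted p = 0.0629), and that peak also lies at the start of the neighbouring gene Ankzf1. Atg2b had a log2 change of 0.08.

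Of the conjugation genes, 2 of 9 had a called start-site peak. Atg4d, a protease that processes ATG8 proteins, had 249 and 207 tags in WT and 630.3 and 609.9 in SgshKO (1.45 ± 0.25, adjusted p = 0.000222). Atg5, which joins Atg12 in the complex that attaches LC3 to lipid, had 145 and 93.2 in WT and 237 and 239 in SgshKO, at a peak annotated to its 5′ UTR (1.03 ± 0.29, adjusted p = 0.0218). The groups did not overlap at either peak. Without WT replicate 2 the adjusted p was 0.106 for Atg4d and 0.774 for Atg5, and without WT replicate 1 it was 0.15 for Atg5. The remaining 7 genes were not called: Atg3, the E2-like enzyme, had 0.75 (adjusted p = 0.0963), Atg12 0.43, Atg10 0.40, Atg7 0.33, Atg16l1 -0.15, Atg4b -0.16 and Atg4c -0.18 at their strongest peaks.

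In the ATG8 family, Map1lc3b, which encodes LC3B, was the 1 of 5 genes with a call in microglia. Its peak had 123 and 104 tags in WT and 359 and 241 in SgshKO (2.65-fold, 1.37 ± 0.28, adjusted p = 0.00167). The groups did not overlap, and the call was lost without either WT library (adjusted p of 0.0626 for replicate 1 and 0.282 for replicate 2). Gabarap, Gabarapl2, Map1lc3a and Gabarapl1 had log2 changes of 0.69, 0.62, 0.27 and 0.10 at their strongest peaks and did not pass.

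Among the cargo receptors, Tax1bp1 was called just inside the threshold, with 149.5 and 114 tags in WT and 261 and 220.02 in SgshKO (0.88 ± 0.28, adjusted p = 0.0481). Its call was lost without WT replicate 1 (0.36), without WT replicate 2 (0.791) and with quantile normalization (0.0583). Optn and Nbr1 had similar log2 values, 0.86 and 0.77, with adjusted p of 0.116 and 0.107. Sqstm1, which encodes p62, had 379 and 308 in WT and 477 and 395 in SgshKO (0.34, adjusted p = 0.454), and Calcoco1, a receptor for endoplasmic reticulum fragments, had 0.05.

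No start-site peak of the class III PI3-kinase group was called in microglia, 0 of 11 at 7 genes, with log2 changes of the strongest peaks from -0.56 at Pik3r4, the regulatory subunit, to 0.94 at Atg14, which directs the complex to autophagosomes. Uvrag, the subunit of the complex that acts on endosomes, came nearest, with 404 and 355 tags in WT and 656 and 622 in SgshKO (0.75 ± 0.24, adjusted p = 0.0512). Its groups did not overlap. Becn1, the scaffold Beclin 1, had 95.9 and 69.5 in WT and 94.4 and 90.1 in SgshKO (0.17), and its groups overlapped. Tecpr1 and Epg5, factors for fusion with lysosomes, had 0.57 and 0.49 and were not called.

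**Figure D2:**
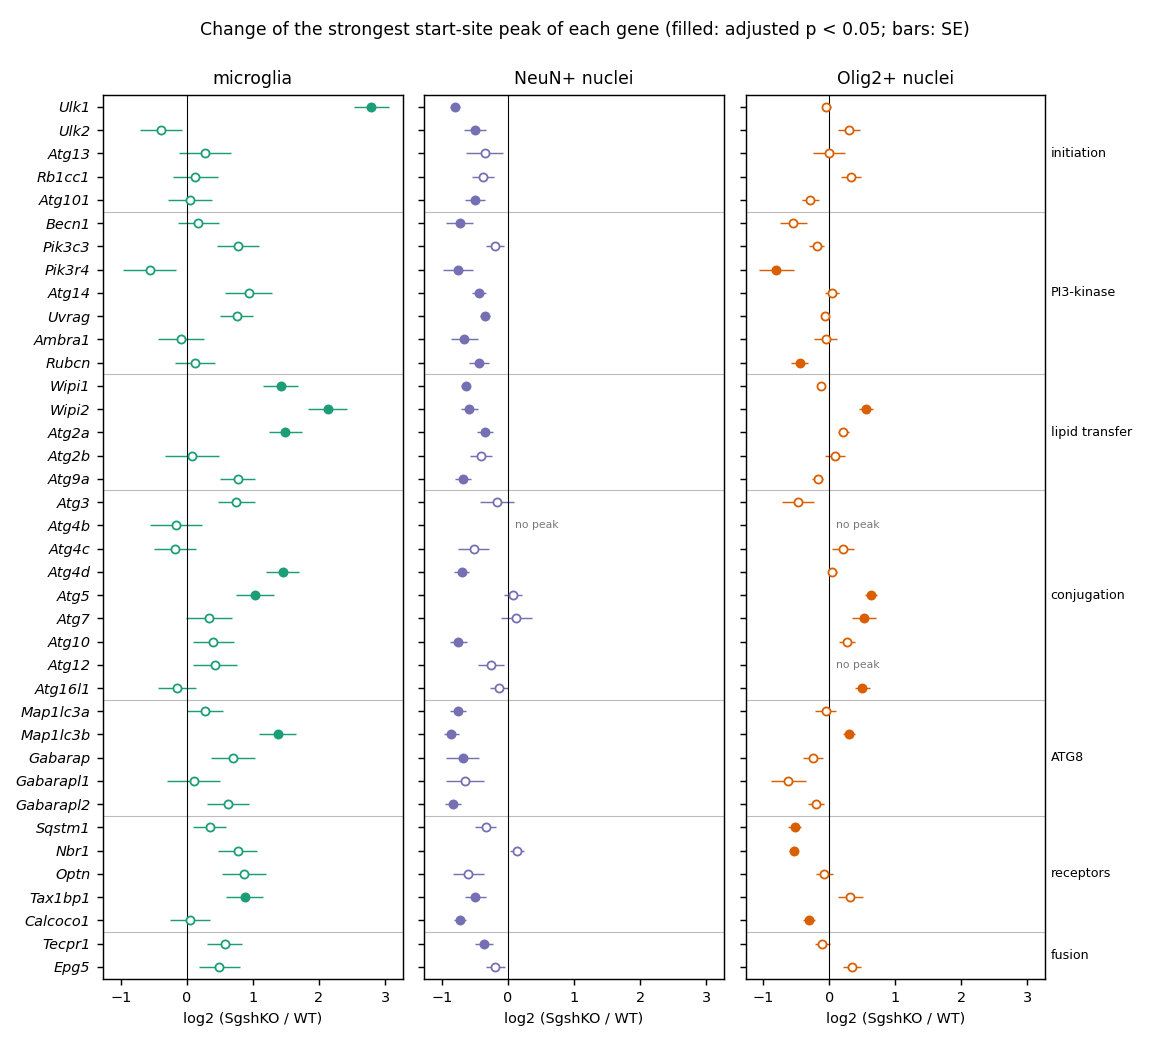
Log2 change (SgshKO over WT) of the strongest start-site peak of each of the 38 genes, ordered by role, in the 3 sorts. Bars are standard errors from limma and filled points have an adjusted p under 0.05. Ulk1, Wipi2 and Atg2a stand out to the right in microglia (2.79, 2.13 and 1.49), 34 of 37 points lie left of 0 in NeuN+ nuclei, and the points lie on both sides of 0 in Olig2+ nuclei.

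The distal peaks of the same genes were called in both directions in microglia, with a split that depended on the tool, the scaling and the libraries. Of 139 distal peaks at 26 genes, 8 were called higher and 6 lower, where 3.80% of all distal peaks were higher and 2.72% lower. The median change was -0.13 for the members and -0.12 for all distal peaks. With scaling to the tags in peaks the split was 8 higher and 21 lower. No peak was called lower with DESeq2 (6 higher) or when WT library 1 (4 higher) or WT library 2 (1 higher) was dropped, and dropping SgshKO library 1 or 2 gave 39 (10 higher and 29 lower) or 29 (18 and 11). By position, 81 of the 139 lay in the body of the assigned gene, 21 in another gene and 37 between genes, since the annotation assigns a peak to the nearest start site.

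The largest distal change was in intron 1 of Atg7, the E1-like enzyme of both conjugation reactions, 1607 bp after its start (chr6:114644583-114644825). It had 19.0 and 12.7 tags in WT and 129.9 and 84.5 in SgshKO (6.76-fold, 2.67 ± 0.38, adjusted p = 9.98e-06), while the peak at the Atg7 start itself had 43.2 and 39.0 in WT and 49.4 and 54.8 in SgshKO and was not called. An intron 1 peak of Tecpr1, 2081 bp after the start, had 14.7 and 11.9 in WT and 64.1 and 57.6 in SgshKO (2.12 ± 0.40, adjusted p = 0.000569). Sqstm1 had a called peak upstream, at -2359 bp, with 83.0 and 67.8 in WT and 199.99 and 230.2 in SgshKO (1.50 ± 0.29, adjusted p = 0.000885). The WT and SgshKO values were apart at all 3 peaks. A second upstream Sqstm1 peak, at -1303 bp, had 17.3 and 12.7 in WT and 36.4 and 55.7 in SgshKO (1.54, adjusted p = 0.0165). Without WT replicate 2 the adjusted p was 0.0965 at Tecpr1, 0.251 at the first Sqstm1 peak and 0.574 at the second, and without WT replicate 1 it was 0.16 at the second. The Atg7 peak stayed called in each setting that holds it.

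Several distal peaks assigned to autophagy genes lie in other genes. The peak assigned to Uvrag at -14311 bp is in intron 7 of Dgat2, which encodes a triglyceride-synthesising enzyme, and had 44.9 and 45.8 tags in WT and 194 and 96.6 in SgshKO (1.57, adjusted p = 0.00232). The peak assigned to Atg16l1 at -59403 bp is in intron 11 of Inpp5d, which encodes the phosphatase SHIP1 of blood and microglial cells. It had 25.9 and 27.1 in WT and 6.93 and 6.50 in SgshKO (-1.83, adjusted p = 0.0108). An intron 6 peak of Uvrag at +113916 bp had 51.0 and 41.5 in WT and 22.5 and 11.1 in SgshKO (-1.48, adjusted p = 0.0232). An intron 1 peak of Atg101 had 33.7 and 34.7 in WT and 10.4 and 12.1 in SgshKO (-1.53, adjusted p = 0.0234). At each of these 4 peaks the groups did not overlap. All 4 calls were lost without WT replicate 1 (adjusted p of 0.111, 0.319, 0.493 and 0.4 in the order given) and without WT replicate 2 (0.171, 0.514, 0.4 and 0.585). The 3 that fell were also not called by DESeq2 (0.0581, 0.0576 and 0.0852).

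**Figure D3:**
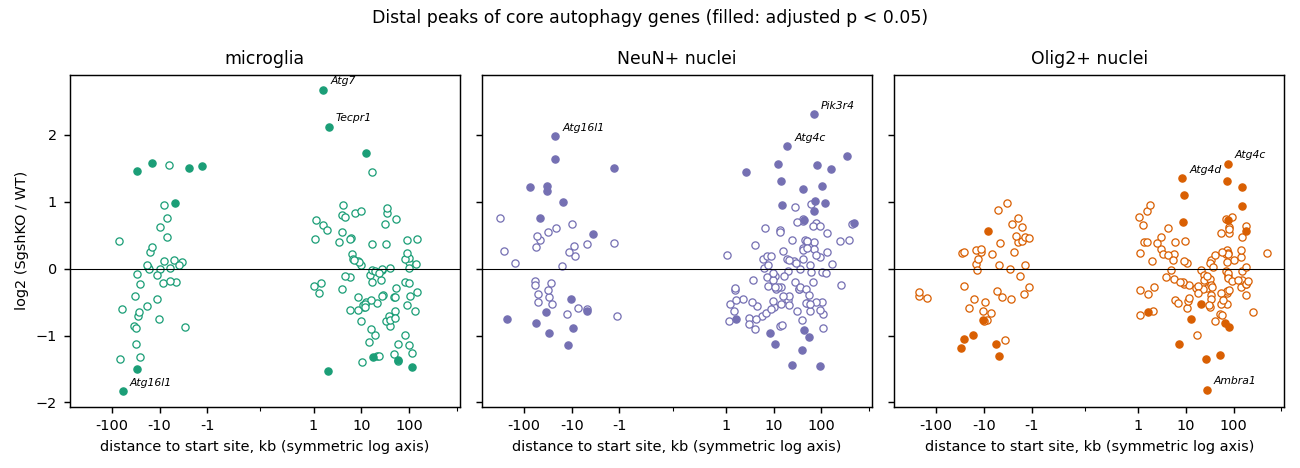
Log2 change (SgshKO over WT) of every distal peak of the core autophagy genes against its distance to the assigned start site in kb, on a symmetric log axis, in the 3 sorts. Filled points have an adjusted p under 0.05: 8 higher and 6 lower in microglia, 25 higher and 16 lower in NeuN+ nuclei, and 10 higher and 15 lower in Olig2+ nuclei.

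In NeuN+ nuclei the start sites of autophagy genes had fewer tags in SgshKO. Of 60 start-site peaks at 37 genes, 31 were called lower and 0 higher, and 39 had an unadjusted p under 0.05. Counts at an unadjusted p were not made over all peaks. Over all start-site peaks of this sort 44.9% were called lower and 1.74% higher, so the share of members (51.7%) is close to the background. The members' median log2 change was -0.44 and that of all start-site peaks -0.53. The deposited scaling puts the median of all peaks, start-site and distal together, at -0.23 in this sort, against 0.05 with scaling to tags in peaks, -0.03 with median-of-ratios scaling and -0.08 with quantile normalization. Under these 3 the split of higher and lower calls among the 60 became 4 and 14, 3 and 16, and 4 and 4. It was 3 and 17 with edgeR, and 0 and 6 with DESeq2. When either SgshKO library was dropped, no peak of the whole table was called by limma, while 26 and 28 of the 60 had an unadjusted p under 0.05. Dropping WT library 1 left 14 calls and dropping WT library 2 left 19. Beside this, summed start-site tags were lower in the SgshKO libraries for all 8 neuronal markers together (943 and 873 in WT, 507 and 516 in SgshKO) and for the oligodendrocyte lineage (199.95 and 175 in WT, 97.0 and 105 in SgshKO, from 5 of 9 genes, with Olig2, Sox10, Mog and Mag lacking a peak). The astrocyte, endothelial and blood myeloid lists had no start-site peak in this sort. The part of the share of tags in peaks and of cell content in the results of this sort was not tested beyond the scalings given.

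Ulk1 again had the smallest p of the group. Its peak (chr5:110810099-110810312) had 332 and 354 tags in WT and 195 and 197 in SgshKO, so both SgshKO libraries lay below both WT libraries. The log2 change was -0.80 ± 0.08 (adjusted p = 2.53e-06). It was smaller under other scalings: -0.50 with tags in peaks, -0.59 with median-of-ratios scaling and -0.23 with quantile normalization, where it was not called (adjusted p = 0.0622). Wipi1 had 588 and 516 in WT and 346 and 361 in SgshKO (-0.64 ± 0.07, adjusted p = 5.73e-06). Calcoco1 had 231 and 234 in WT and 139 and 141 in SgshKO (-0.73 ± 0.09, adjusted p = 2.4e-05). The ATG8 family had 6 of 10 start-site peaks called lower. Map1lc3b had 193 and 169 in WT and 97.0 and 102 in SgshKO (-0.86 ± 0.11, adjusted p = 2.81e-05). Gabarapl2, a GABARAP protein, had 147 and 136 in WT and 81.7 and 75.6 in SgshKO (-0.84 ± 0.12, adjusted p = 7.88e-05), and Map1lc3a, which encodes LC3A, had 164 and 142 in WT and 90.7 and 88.9 in SgshKO (-0.76, adjusted p = 0.000147). A smaller Map1lc3b peak in intron 1, 344 bp after the start, had 17.0 and 15.3 in WT and 4.19 and 4.44 in SgshKO (-1.69, adjusted p = 0.00085). WT and SgshKO values were apart at each of these peaks.

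Further NeuN+ start-site calls were Atg4d, with 187 and 224 tags in WT and 133 and 117 in SgshKO (-0.70, adjusted p = 0.000175), Atg10, the E2-like enzyme for Atg12, with 119.5 and 115 in WT and 68.4 and 69.8 in SgshKO (-0.75, adjusted p = 0.000319), and Atg9a, with 155 and 178 in WT and 114 and 92.7 in SgshKO (-0.69, adjusted p = 0.000502). The groups did not overlap at any of them. All 10 named NeuN+ start-site calls were lost without SgshKO replicate 1 (adjusted p = 0.126 at each) and without SgshKO replicate 2 (0.129 to 0.14). Quantile normalization ended all of them except the small Map1lc3b peak, with adjusted p of 0.0622 to 0.501, and DESeq2 ended Map1lc3a (0.0513), Atg10 (0.105), Atg9a (0.102) and the small Map1lc3b peak (0.13). By group, lower calls were 9 of 11 start-site peaks for the class III PI3-kinase genes, 5 of 9 for the initiation complex, 5 of 8 for lipid transfer, 2 of 10 for conjugation, 3 of 9 for receptors and 1 of 3 for fusion. The conjugation genes Atg5, Atg7 and Atg16l1 had overlapping groups, with log2 changes of 0.07, 0.12 and -0.14. Atg4b had no start-site peak in this sort.

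Distal peaks of the autophagy genes in NeuN+ nuclei were called in both directions, 25 higher and 16 lower of 170 at 32 genes. The background was 12.6% higher and 12.6% lower over all distal peaks, and the median change was -0.04 for members against -0.11 for all. The split was 38 and 7 with scaling to tags in peaks, 33 and 7 with median-of-ratios scaling, 21 and 3 with quantile normalization and 36 and 7 with edgeR. Of the 41 calls, dropping WT library 1 left 16, dropping WT library 2 left 18, and dropping SgshKO library 1 or 2 left 0 by limma, where 37 and 51 peaks had an unadjusted p under 0.05. DESeq2 called 6. The 6 named peaks that rose had only 2.26 to 14.2 tags in WT. The peak assigned to Pik3r4 at +69309 bp, in intron 32 of the collagen gene Col6a6, had 2.27 and 2.26 tags in WT and 18.2 and 12.7 in SgshKO (2.31 ± 0.35, adjusted p = 0.000148). An intergenic peak at -22487 bp from Atg16l1 had 6.23 and 3.39 in WT and 20.2 and 22.2 in SgshKO (1.98, adjusted p = 0.000245). An intron 2 peak of Rubcn, a negative regulator of the class III complex, had 14.2 and 10.2 in WT and 32.8 and 29.8 in SgshKO (1.31, adjusted p = 0.000869). SgshKO values exceeded WT values at all 3.

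Atg4c, a protease of the same family as Atg4d, had 2 named NeuN+ distal peaks that rose, at +19205 bp (6.80 and 2.82 in WT, 16.8 and 20.3 in SgshKO, 1.83, adjusted p = 0.00104) and at +12438 bp (5.10 and 4.52 in WT, 18.9 and 14.0 in SgshKO, 1.57, adjusted p = 0.00153). An intergenic peak at -22301 bp from Atg14 had 5.10 and 3.39 in WT and 14.0 and 16.5 in SgshKO (1.65, adjusted p = 0.00147). The 2 named distal peaks that fell were stronger in WT. The Map1lc3b peak at -4858 bp is intergenic, with 154 and 167 in WT and 117 and 90.8 in SgshKO (-0.63, adjusted p = 0.00124). The second was assigned to Calcoco1 at +23787 bp, with 24.4 and 24.3 in WT and 11.9 and 5.71 in SgshKO (-1.45, adjusted p = 0.0021). No groups overlapped at these peaks. Every named NeuN+ distal call was lost without SgshKO replicate 1 (adjusted p of 0.126 to 0.156) and without SgshKO replicate 2 (0.129 to 0.182). The Map1lc3b peak was also not called with quantile normalization (0.733) or DESeq2 (0.19), nor the Calcoco1 peak with DESeq2 (0.151).

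In Olig2+ nuclei 10 of 54 start-site peaks at 36 genes were called, 5 higher and 5 lower, where 12.7% of all start-site peaks were higher and 7.56% lower. The median change was -0.05 for members and 0.05 for all. The split was 9 and 4 with median-of-ratios scaling and 9 and 5 with edgeR, and DESeq2 called 5. Dropping WT library 1 left 4 calls and dropping WT library 2 left 5. Summed start-site tags of the 9 oligodendrocyte-lineage markers came to 3108 and 3080.4 in WT against 2663 and 2689 in SgshKO, of the microglial list (2 of 8 genes) 240.15 and 233 against 271 and 284, and of the neuronal list (4 of 8 genes) 42.5 and 51.6 against 60.3 and 59.2. Their part in the results of this sort was not tested. Ulk1 was not among them: its peak had 491 and 456 tags in WT and 456 and 463 in SgshKO, and the groups overlapped (-0.04 ± 0.06, adjusted p = 0.688). None of the 9 start-site peaks of the initiation complex was called in this sort by limma, where the count of all 54 at an unadjusted p under 0.05 was 23. The share of all start-site peaks at that unadjusted p was not counted.

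Of the 5 cargo receptors, 3 fell in Olig2+ nuclei. Nbr1 had 379 and 378 tags in WT and 264 and 256 in SgshKO (-0.54 ± 0.07, adjusted p = 5.52e-06), at a peak it shares with the start of a neighbouring gene. The Sqstm1 peak in intron 1, 590 bp after the start, had 207 and 224 in WT and 140.2 and 160.2 in SgshKO (-0.52 ± 0.10, adjusted p = 0.000395). Calcoco1 had 224 and 239.8 in WT and 189 and 186 in SgshKO (-0.31 ± 0.09, adjusted p = 0.0169). The WT libraries were above the SgshKO libraries at all 3, and the calls of Nbr1 and Sqstm1 held under every alternative. Rubcn had 114 and 112 in WT and 84.2 and 81.1 in SgshKO (-0.44, adjusted p = 0.0131), and Pik3r4 had 26.5 and 24.5 in WT and 17.8 and 11.3 in SgshKO (-0.80, adjusted p = 0.0295). Without WT replicate 1 or WT replicate 2 the adjusted p was 0.0665 and 0.193 for Calcoco1, 0.123 and 0.106 for Rubcn, and 0.175 and 0.118 for Pik3r4, which also missed the threshold without SgshKO replicate 2 (0.231) and with quantile normalization (0.0682). DESeq2 called none of these last 3 (0.311, 0.243 and 0.347 in the same order), and Calcoco1 was not called with median-of-ratios scaling (0.0548).

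The 5 start-site peaks that rose in Olig2+ nuclei included 3 conjugation genes. Atg5 had 160.3 and 164 tags in WT and 248 and 253 in SgshKO (1.55-fold, 0.63 ± 0.09, adjusted p = 1.17e-05). Wipi2 had 115 and 137 in WT and 180.2 and 189 in SgshKO (0.56 ± 0.11, adjusted p = 0.000475). Both calls held under every alternative. Atg16l1, the partner of the Atg5 and Atg12 conjugate, had 107 and 117 in WT and 154 and 163 in SgshKO (0.50 ± 0.11, adjusted p = 0.00182), and its adjusted p was 0.0541 without WT replicate 1. Map1lc3b had 186 and 198 in WT and 221 and 251 in SgshKO (0.30 ± 0.09, adjusted p = 0.0232). Atg7 had 34.8 and 34.8 in WT and 55.3 and 46.5 in SgshKO (0.53 ± 0.18, adjusted p = 0.0379). The groups were apart at all 5. The Map1lc3b call was lost without WT replicate 1 (0.199), WT replicate 2 (0.0754) or SgshKO replicate 2 (0.188) and with DESeq2 (0.0668). The Atg7 call was lost without WT replicate 1 (0.165), WT replicate 2 (0.165) or SgshKO replicate 1 (0.207) and with DESeq2 (0.187). Atg4b and Atg12 had no start-site peak in this sort.

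**Figure D4:**
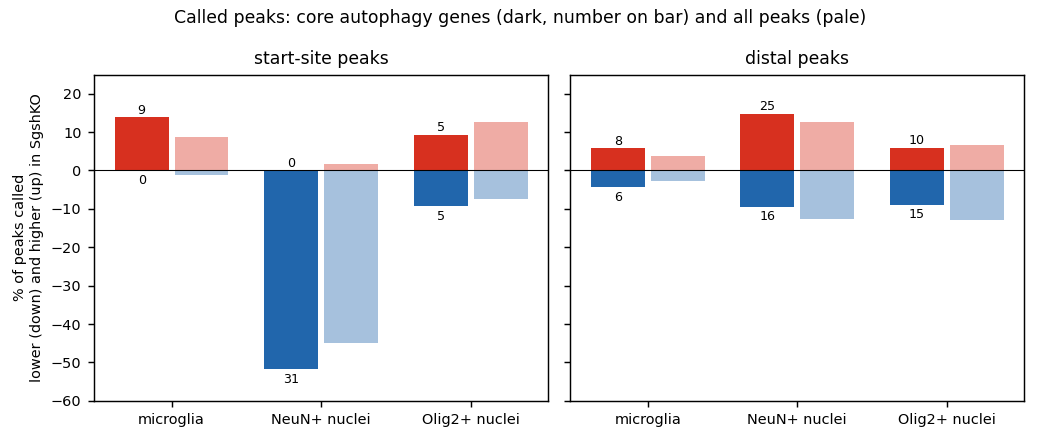
Share of start-site peaks (left) and distal peaks (right) called higher (up) and lower (down) in SgshKO, in percent, for the core autophagy genes (dark bars, number of peaks on the bar) and for all peaks of the table (pale bars), in the 3 sorts. In microglia 13.8% of member start-site peaks were higher against 8.59% of all, and in NeuN+ nuclei 51.7% were lower against 44.9% of all.

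Distal peaks in Olig2+ nuclei were called higher at 10 and lower at 15 of 169 peaks at 26 genes, where 6.70% of all distal peaks were higher and 13.0% lower, with medians of -0.10 and -0.13. The split was 12 and 9 with quantile normalization, 12 and 13 with median-of-ratios scaling and 13 and 14 with edgeR. Of the 25, dropping WT library 1 left 9, dropping WT library 2 left 12, DESeq2 called 6, and 16 were called among peaks with a peak score of 1000. Atg4c had 41 distal peaks in this sort, the most of any member, and 3 of the 8 named. At +147018 bp it had 23.9 and 23.5 tags in WT and 52.9 and 59.8 in SgshKO (1.21 ± 0.19, adjusted p = 3.89e-05). In intron 1, at +8620 bp, it had 91.3 and 102 in WT and 151 and 164 in SgshKO (0.70 ± 0.12, adjusted p = 7.36e-05). At +72882 bp it had 20.8 and 12.3 in WT and 43.7 and 38.6 in SgshKO (1.31 ± 0.24, adjusted p = 0.000251). All 3 rose with no overlap of the groups. An intron 17 peak of Atg7 had 75.7 and 90.5 in WT and 134 and 142 in SgshKO (0.73 ± 0.13, adjusted p = 0.000114).

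The Olig2+ distal peaks that fell included a pair of intergenic peaks before Uvrag. The one at -10359 bp had 161 and 169.8 tags in WT and 101 and 92.4 in SgshKO (-0.77 ± 0.11, adjusted p = 1.49e-05). The one at -4839 bp had 39.4 and 39.4 in WT and 17.8 and 13.3 in SgshKO (-1.30 ± 0.23, adjusted p = 0.00016). These and the 4 named peaks of Atg4c and Atg7 were called under every alternative that holds them. Ambra1, a regulator of Beclin 1, had an intron 1 peak with 12.5 and 10.2 in WT and 1.84 and 3.32 in SgshKO (-1.81, adjusted p = 0.00111), not called without WT replicate 1 (0.111) or WT replicate 2 (0.0523). Atg13 had an intron 5 peak with 172 and 146 in WT and 106 and 113 in SgshKO (-0.53, adjusted p = 0.00156), not called without WT replicate 1 (0.101) or with DESeq2 (0.0655). WT and SgshKO values did not overlap at any of the 4 peaks.

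An intron 3 peak of Ulk1, centred at +1614 bp in microglia, was called in both kinds of nuclei but not in microglia. It had 128 and 111 tags in WT and 201 and 175 in SgshKO microglia (0.65, adjusted p = 0.164), 30.6 and 24.9 in WT and 16.1 and 15.9 in SgshKO NeuN+ nuclei (-0.75, adjusted p = 0.0216), and 30.6 and 32.2 in WT and 17.2 and 22.6 in SgshKO Olig2+ nuclei (-0.64, adjusted p = 0.0445). Groups did not overlap in any of the 3 sorts. These peaks were chosen as the strongest distal peak of the gene the set is named for, after values were seen.

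To compare sorts, peaks of the 3 tables that overlapped each other by at least 50% of both lengths were matched, 16761 peaks in all and 48 of the autophagy genes (37 start-site peaks of 30 genes and 11 distal peaks of 8 genes). The 3 differences between sorts share libraries with each other and with the tests above. The genotype effect was lower in NeuN+ nuclei than in microglia at 21 of the 37 start-site peaks and higher at 1, where 55.0% of all matched start-site peaks were lower and 0.807% higher. It was lower in Olig2+ nuclei than in microglia at 14 and higher at 1, against 23.9% and 3.96% of all. It was higher in Olig2+ than in NeuN+ nuclei at 14 and lower at 1, against 41.4% and 0.560%. Of the 11 distal peaks, 2, 2 and 1 were called in the same order, against 19.8%, 11.0% and 14.5% of all matched distal peaks. Their splits (higher and lower) were 0 and 2, 0 and 2, and 1 and 0, and with scaling to tags in peaks they turned to 5 and 1, 0 and 1, and 0 and 3. The median of the 11 for NeuN+ nuclei against microglia went from -0.23 to 0.73 under that scaling. Start-site splits also moved with the scaling. NeuN+ against microglia gave 3 and 6 with tags in peaks and 3 and 8 with quantile normalization, Olig2+ against microglia 3 and 7, and 1 and 11, and Olig2+ against NeuN+ nuclei 1 and 2 with both.

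The Ulk1 genotype effect differed most. The difference was -3.59 ± 0.19 on the log2 scale between NeuN+ nuclei and microglia (limma, adjusted p = 3.15e-11) and -2.83 ± 0.19 between Olig2+ nuclei and microglia (adjusted p = 5.01e-09). The fit shares 1 spread over all 12 libraries, so these SEs lie below that of the Ulk1 change in microglia alone (0.27). The SEs and p-values of differences from microglia may therefore overstate the precision. With the spread of each sort on its own, all 15 named differences of effect kept their call. Scaling to tags in peaks left -2.59 for the first and quantile normalization -2.49. Wipi2 differed by -2.72 ± 0.28 and -1.57 ± 0.28 in the same order, Atg4d by -2.15 ± 0.19 and -1.40 ± 0.19, and Atg2a by -1.83 ± 0.19 and -1.27 ± 0.19. Map1lc3b differed by -2.23 ± 0.23 between NeuN+ nuclei and microglia, and Nbr1 by -1.31 ± 0.24 between Olig2+ nuclei and microglia. These 10 differences were called under every alternative. Between Olig2+ and NeuN+ nuclei the called differences were smaller and most were lost with other scalings: Map1lc3b 1.15 ± 0.23 (adjusted p = 0.0701 with tags in peaks, 0.0962 with quantile normalization), Atg10 1.03 ± 0.22 (0.182 and 0.257), Wipi2 1.15 ± 0.28 (0.134 and 0.272) and the Map1lc3a intron 1 peak 1.25 ± 0.31 (0.119 and 0.0845, and 0.0505 without NeuN+ WT replicate 1). The intron 1 peak of Map1lc3b, 1.84 ± 0.43, kept its call with both scalings. The count of 15 for this pair was 6 without NeuN+ WT replicate 1, 7 without NeuN+ SgshKO replicate 2 or Olig2+ WT replicate 1, and 8 without Olig2+ WT replicate 2 or Olig2+ SgshKO replicate 2.

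By the strongest start-site peak of each gene, 5 genes were called higher in microglia, lower in NeuN+ nuclei and not called in Olig2+ nuclei (Ulk1, Wipi1, Atg2a, Atg4d and Tax1bp1). Wipi2 and Map1lc3b were called higher in microglia and Olig2+ nuclei and lower in NeuN+ nuclei, and Atg5 was called higher in microglia and Olig2+ nuclei and not called in NeuN+ nuclei. Calcoco1, Pik3r4 and Rubcn were called lower in both kinds of nuclei. Another 12 genes were called lower in NeuN+ nuclei and not called in the other sorts, Atg7 and Atg16l1 were called higher and Nbr1 and Sqstm1 lower in Olig2+ nuclei and nowhere else, and 9 genes (Atg13, Atg2b, Atg3, Atg4c, Epg5, Gabarapl1, Optn, Pik3c3 and Rb1cc1) had a start-site peak in all 3 sorts and were called in none. Atg4b and Atg12 were also not called where they had a start-site peak. Counting all peaks, 10 genes had a called peak in each of the 3 sorts, 14 in 2, 8 in 1 and 6 in none (Rb1cc1, Atg2b, Atg3, Atg4b, Atg12 and Gabarapl1). Neither these tallies nor the patterns before them were counted over all genes. In NeuN+ nuclei 44.9% of all start-site peaks were called lower. A gene with many peaks also has more occasions for a call, such as Uvrag with 38 in microglia, 19 in NeuN+ and 26 in Olig2+ nuclei. The patterns set thresholds side by side, and only the differences named above were tested as differences. The intergenic peak before Map1lc3b, at -4849 bp in microglia, was called in the same directions as its start site: 93.3 and 77.1 tags in WT and 197 and 144 in SgshKO microglia (0.98, adjusted p = 0.0369), against the fall in NeuN+ nuclei given above. With quantile normalization the NeuN+ change was -0.07 and not called, and DESeq2 did not call it. The difference between the microglia and NeuN+ changes in the deposited scaling was -1.61 ± 0.23 (adjusted p = 4.84e-06). It is not among the 5 differences of smallest p for this pair of sorts, and no alternatives are given for it.

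**Figure D5:**
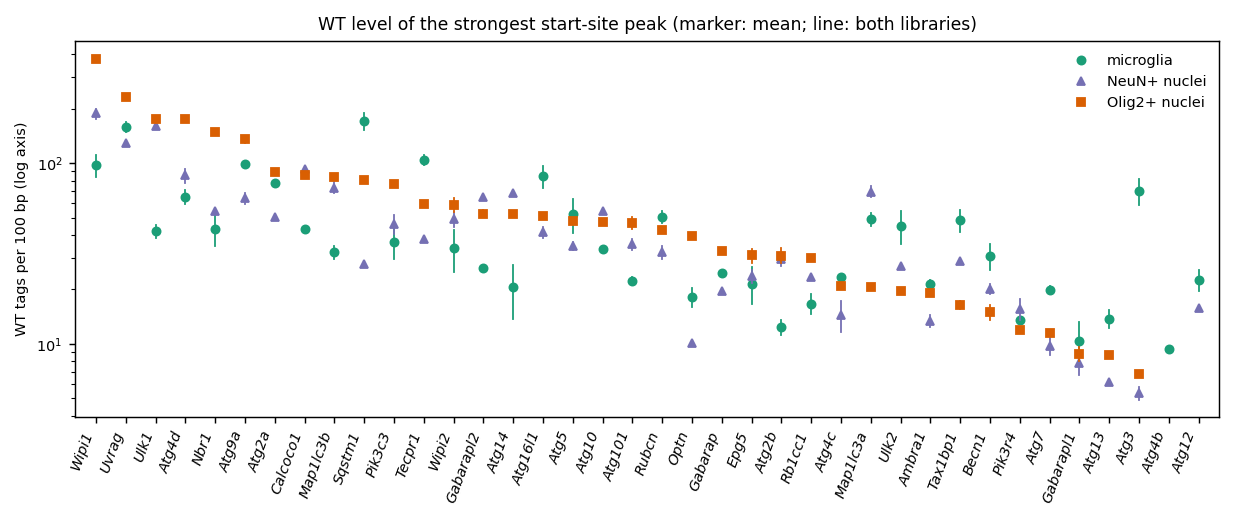
WT tags per 100 bp of the strongest start-site peak of each gene in the 3 sorts, on a log axis. Markers are means and lines join the 2 WT libraries. Ulk1 lies at 41.9 in microglia, against 160.3 and 176 in NeuN+ and Olig2+ nuclei.

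In WT mice the autophagy genes differed in which sort was most open. Per 100 bp of peak, the highest WT level was that of Sqstm1 in microglia (171 tags per 100 bp) and of Wipi1 in NeuN+ (188) and Olig2+ nuclei (377). The lowest was Atg4b in microglia (9.41) and Atg3 in NeuN+ (5.35) and Olig2+ nuclei (6.76). Over the 36 genes with a start-site peak in each sort, microglia had the highest level for 14, Olig2+ nuclei for 16 and NeuN+ nuclei for 6. This tally holds for the deposited scaling, and for some genes it sets different regions side by side. The strongest Atg3 peak was centred at -3 bp in microglia and at +477 and +423 bp in NeuN+ and Olig2+ nuclei. Between sorts the region also differed for Ulk2, Atg2b, Ambra1, Map1lc3a, Gabarap and Gabarapl1. Among the 37 matched start-site peaks, 7 were called higher and 16 lower in NeuN+ nuclei than in microglia (25.1% and 41.9% of all matched start-site peaks), 14 higher and 12 lower in Olig2+ nuclei than in microglia (31.1% and 39.0%), and 14 higher and 2 lower in Olig2+ than in NeuN+ nuclei (32.5% and 19.6%). The first split became 12 and 8 with scaling to tags in peaks and 13 and 7 with quantile normalization, the second 17 and 8 with quantile normalization and the third 9 and 8 with tags in peaks.

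Ulk1 was the least open of the 3 in WT microglia, with 106 and 90.7 tags. NeuN+ nuclei had 332 and 354, and Olig2+ nuclei 491 and 456. The log2 differences from microglia were 1.79 ± 0.13 (adjusted p = 8.35e-11) and 2.26 ± 0.13 (adjusted p = 1.71e-12), and Olig2+ exceeded NeuN+ nuclei by 0.46 ± 0.13 (adjusted p = 0.0066). In the same order, the differences from microglia were 2.22 and 2.38 with scaling to tags in peaks. With quantile normalization they were 2.40 and 2.34. The order of the 2 kinds of nuclei at Ulk1 thus depended on the scaling, and their difference is not among the 15 named below. The Ulk1 intron 3 peak had the opposite order in WT, -2.07 ± 0.22 in NeuN+ nuclei against microglia. Sqstm1 was more open in microglia, with 379 and 308 tags against 84.4 and 82.5 in NeuN+ nuclei (-2.02 ± 0.16, adjusted p = 2.14e-10), and Olig2+ nuclei lay between with 207 and 224 (1.36 ± 0.16 above NeuN+ nuclei). Tecpr1 was lower in NeuN+ nuclei than in microglia by 1.46, and an Atg4c distal peak by 2.40, as log2 differences of -1.46 and -2.40. Nbr1 was higher in Olig2+ nuclei (379 and 378 tags) than in microglia (143 and 97.4) by 1.67 ± 0.17, and than in NeuN+ nuclei (134 and 141) by 1.45 ± 0.17. Map1lc3a had its intron 1 peak lower in Olig2+ nuclei than in microglia (-2.27) and its start peak lower than in NeuN+ nuclei (-1.43), and Tax1bp1 was lower in Olig2+ nuclei than in microglia (-1.89). Optn, a receptor for damaged mitochondria, and Atg2a were higher in Olig2+ than in NeuN+ nuclei (1.81 and 0.99), and the peak before Map1lc3b was higher in Olig2+ nuclei than in microglia (1.57). All 15 named WT differences, 5 for each pair of sorts, were called under every alternative.

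A second list of 40 further autophagy genes (tethering and fusion factors, the mTOR, AMPK and TSC regulators, and receptors for mitochondria and endoplasmic reticulum) gave 8 higher and 0 lower of 73 start-site peaks in microglia, 1 and 31 of 53 in NeuN+ nuclei, and 7 and 5 of 67 in Olig2+ nuclei. Their distal peaks gave 6 and 4 of 233, 12 and 30 of 165, and 5 and 23 of 121. The medians of the start-site peaks of this list were 0.28, -0.54 and -0.04, beside 0.33, -0.44 and -0.05 for the core genes. For all start-site peaks they were 0.03, -0.53 and 0.05. Neither list was tested against all peaks. Start-site peaks of the core genes were found in both other tables more often than all start-site peaks (67.7% against 54.8% for the microglia table, 73.3% against 55.5% for NeuN+, 81.5% against 64.4% for Olig2+, counting an overlap of at least 1 bp), a difference that was not tested. Most distal peaks were in no other table (72.7%, 65.9% and 69.2%, against 72.0%, 70.9% and 62.9% of all distal peaks).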

How the data were processed

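Per the submitters' processing notes, Bowtie2, HOMER and the mm10 build were used (versions and peak-calling settings: not given in the sources used here). Per the file headers, the deposited signal counts tags per peak, scaled by the authors to 10000000 tags per library from its total, in 1 annotated peak table per sort. The tables also hold a deposited peak score, used only as a filter in an alternative. 

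Undoing the scaling with the header totals gave whole reads within 0.01 for 100% of values in each table. Gene symbols that had been turned into dates were restored from their gene identifiers (169, 202 and 168 peaks in the microglia, NeuN+ and Olig2+ tables). limma 3.58.1 (R 4.3.3) was fitted within each table to log2(value + 1) of its 4 libraries, with mean-variance trend, and p-values were adjusted over all peaks of the table by Benjamini-Hochberg (threshold 0.05). Fold changes on this scale understate changes of low peaks. Over all peaks limma called 6765, 32105 and 16370 in the microglia, NeuN+ and Olig2+ tables. On the recovered reads edgeR 4.0.16 called 14202, 29461 and 17860, and DESeq2 1.42.0 called 4923, 4900 and 3522. The limma and edgeR fits, but not DESeq2, were also run on simulated counts with known changes, and the outcome is not given here. Sorts were compared in 1 limma fit of all 12 libraries over 16761 peaks matched by 50% reciprocal overlap.

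The member genes, other lists and tests were chosen with earlier results of these data known. Named are Ulk1 in each table, up to 10 start-site and 8 distal called peaks per table by smallest p, up to 5 matched peaks per pair of sorts, genes without peaks and the highest and lowest levels; any other gene is given to describe its functional group and was chosen after values were seen. The alternatives were scaling to tags in peaks, median-of-ratios scaling, quantile normalization, a pseudocount of 5, leaving out the lowest 25% of peaks, a peak score of 1000 only, a start-site window of 500 bp, matching by 25% overlap, edgeR, DESeq2, a replicate block, leaving out each library, and, added after seeing the data, the spread of each sort on its own. Promoter sequences are from RefSeq (GRCm38.p6).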

Additional observations from a re-analysis of the deposited data

Results flagged for a closer look

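Each difference here is one in which the genotype effect (log2, SgshKO over WT) differed between sorts by an interaction term in limma. Against microglia, the effect in NeuN+ nuclei was lower at the start sites of Ulk1 (-3.59), Wipi2 (-2.72), Map1lc3b (-2.23), Atg4d (-2.15) and Atg2a (-1.83). Against microglia, the effect in Olig2+ nuclei was lower at Ulk1 (-2.83), Wipi2 (-1.57), Atg4d (-1.40), Nbr1 (-1.31) and Atg2a (-1.27). Against NeuN+ nuclei, the effect in Olig2+ nuclei was higher at the second Map1lc3b start-site peak, in intron 1 (1.84), at the intron 1 peak of Map1lc3a (1.25), at the main Map1lc3b peak (1.15), at Wipi2 (1.15) and at Atg10 (1.03). Of these last 5, only the Map1lc3b intron 1 peak kept its call with scaling to tags in peaks and with quantile normalization. Over all matched start-site peaks, 55.0%, 23.9% and 41.4% were called in the directions given, in the order of the pairs. The differences named here were the 5 of smallest p for each pair of sorts among 37 matched start-site and 11 matched distal peaks.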

How the results depend on the processing

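Of 84 named peak results, 41 stayed on their side of the threshold under every alternative, and no called value changed direction. The Olig2+ Ulk1 start-site peak, not called in any, ranged from -0.09 to 0.03 around its -0.04, above 0 with median-of-ratios scaling, edgeR, DESeq2 and without WT replicate 1. Counts of called member peaks moved by over 1.5 times as follows. The 9 microglia start-site calls became 18 with median-of-ratios scaling, 19 with edgeR and 3 to 16 without single libraries, and the 14 distal calls became 29 with scaling to tags in peaks, 27 with edgeR, 6 with DESeq2 and 1 to 39 without single libraries. The 31 NeuN+ start-site calls became 18 with tags in peaks, 19 with median-of-ratios scaling, 8 with quantile normalization, 20 with edgeR, 6 with DESeq2 and 0 to 19 without single libraries, and the 41 distal calls became 24 with quantile normalization, 6 with DESeq2 and 0 to 18 without single libraries. The 10 Olig2+ start-site calls became 5 with DESeq2 and 4 to 12 without single libraries, and the 25 distal calls became 16 with a peak score of 1000 only, 6 with DESeq2 and 9 to 24 without single libraries. The 2 distal differences of effect between NeuN+ nuclei and microglia became 6 with tags in peaks, 5 of them higher, where both had been lower. The 22 start-site differences of effect between NeuN+ nuclei and microglia became 9 with tags in peaks and 11 with quantile normalization, and the 15 between Olig2+ and NeuN+ nuclei became 3 with either and 6 to 16 without single libraries. With the replicate block, microglia start-site calls became 18 and distal calls 26, and no named call was lost. The labels do not say whether replicate numbers pair the libraries. The correlations of same-numbered deviations over peaks were 0.0564, 0.00416 and 0.00505 in microglia, NeuN+ and Olig2+ nuclei. A correlation over peaks does not see a shift common to all peaks, so it cannot exclude pairing. In microglia, replicates 1 and 2 had 55.8% and 48.7% of tags in peaks in WT, and 67.4% and 53.7% in SgshKO. Leaving out a library leaves 1 in its group, which is assumed to vary like the other group. Fewer libraries leave fewer residual degrees of freedom; other causes of these moves were not tested. In NeuN+ nuclei 5 of the 8 named distal peaks had under 10 scaled tags in both WT libraries, which limits their precision.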
